A study of Stylosanthes guianensis with 6 samples.

Results

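Manganese (Mn) is a micronutrient that becomes toxic to plants in excess, and stylo (Stylosanthes guianensis) is a tropical forage legume. Described here are the unigenes of stylo leaves that stand for the flavonoid enzymes between the chalcone and the flavonol or flavan-3-ol, where a unigene is a gene as the de novo assembly found it. There are 7 of them among 102864 listed unigenes: 3 described as chalcone synthase (CHS) and 1 each as chalcone isomerase (CHI), flavonol synthase (FLS), flavonoid 3',5'-hydroxylase (F3'5'H) and anthocyanidin reductase (ANR). They were taken from the differentially expressed genes that the study called on these same libraries, so their difference between the treatments is given as a description. Counts of those that pass the test over all unigenes are printed only beside the share of all unigenes that do, and support nothing. Seedlings of the genotype TF303 grew for 30 d in nutrient solution and then for 10 d under Mn toxicity (400 μM MnSO4) or control Mn (5 μM MnSO4), and leaf RNA was sequenced as 3 libraries per treatment. In the study's methods a biological replicate of the culture is 1 hydroponic box with 4 seedlings, and all plants shared the genotype, so the spread is that between such boxes. In the sample labels the unit of Mn is mM, but it is μM in the series design and in the methods, and μM is used here.

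Flavonoids are built from a phenylpropanoid-CoA ester and malonyl-CoA. CHS joins them into a chalcone, CHI closes the chalcone into a flavanone, dioxygenases turn flavanones into dihydroflavonols and flavonols, hydroxylases of the cytochrome P450 family add hydroxyl groups to the B ring, and ANR reduces anthocyanidins to the flavan-3-ol units of condensed tannins. In leaves, flavonols and tannins are known as antioxidants, UV screens and metal chelators, and in legumes the same chalcones also feed the isoflavonoids. CHS is encoded by a multigene family in legumes, and its members are close in sequence, so reads of near-identical copies may have been split between assembled unigenes.

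The study designed qRT-PCR primers for 3 of the 7 unigenes, and these are printed to identify the unigenes it followed by that method. Where they lie on the unigenes was not checked here. All are written 5′ to 3′, with the last 5 bases, where extension by the polymerase starts, in capitals. The qRT-PCR values were not analysed here.
CHS DN46875_c3_g5 forward: actgtcgttcttcgcAGTGT
CHS DN46875_c3_g5 reverse: accaagaaaagcagcaaaATGGT
CHI DN45798_c1_g7 forward: gcatcaccgaatgtgCCAAG
CHI DN45798_c1_g7 reverse: agacattggatgggcgTGAAT
F3'5'H DN46520_c2_g1 forward: gaggcatgcttcccaAGAGT
F3'5'H DN46520_c2_g1 reverse: ctctgaaaccgtcacCGGAA
They are 20 to 23 bases long. The CHS reverse primer had the lowest GC content (39.1%), and the CHI forward primer and both F3'5'H primers had 55%. The identifiers are those of the Trinity assembly, given without their common TRINITY prefix except where an enzyme is first described.

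The values are RPKM, reads per kilobase of unigene and per megaread mapped. They rise in equal steps, from which the library totals (37.8, 36.2 and 37.7 M reads, or megareads, in Mn toxicity replicates 1, 2 and 3, and 31.1 to 37.0 M reads in the control libraries) and the reads of every unigene above 0 were recovered. At 1 kb of length, a single read is worth 0.0265 to 0.0321 RPKM. The Mn toxicity libraries were less alike than the control libraries. The 10 most abundant unigenes held 16.2, 4.55 and 25.9% of the reads in Mn toxicity replicates 1, 2 and 3 and 5.78 to 6.20% in the control libraries. Photosystem unigenes of the chloroplast, a check of the leaf tissue, were above 0 in all 6 libraries and moved in the same way, with the D1 protein of photosystem II at 710, 45.5 and 1267 RPKM under Mn toxicity and 37.2 to 72.3 RPKM under control Mn. For this reason values are also given after median-of-ratios scaling, which brings the typical unigene to the same level in every library. The median log2 fold change of the 30913 unigenes with a mean of at least 0.5 RPKM was -0.20 as deposited and 0.00 after this scaling. In leaf RNA, fewer cells of a type and less RNA per cell cannot be told apart.

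All 7 unigenes passed the minimum of 0.5 RPKM, with means over the 6 libraries between 1.44 and 9.58 RPKM. Under Mn toxicity, CHI, FLS, ANR and 1 CHS unigene were higher and 2 CHS unigenes and F3'5'H were lower on average. In 5 of the 7 unigenes the Mn toxicity and control libraries did not overlap (2 higher, 3 lower), where 32.0% of all tested unigenes had no overlap, 9.41% higher and 22.6% lower. With limma on log2(RPKM + 0.5), a call required an adjusted p under 0.05 and at least 1 on the log2 scale in either direction. Of the 7, 1 was called higher and 3 lower, where 5.78% of all tested unigenes were called (2.09% higher and 3.69% lower). After median-of-ratios scaling 2 were called higher and 2 lower, where 8.14% of all were called (4.37% higher and 3.77% lower). When Mn toxicity replicate 3 was left out, 6 of the enzymes passed, 3 in each direction, where 9.16% of all were called (5.58% higher and 3.58% lower), and limma voom on the recovered reads with library totals called 2, both lower, where it called 4.69% of all (1.72% higher and 2.97% lower). Since the unigenes were chosen by this contrast, nothing is read from these counts.

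**Figure D1:**
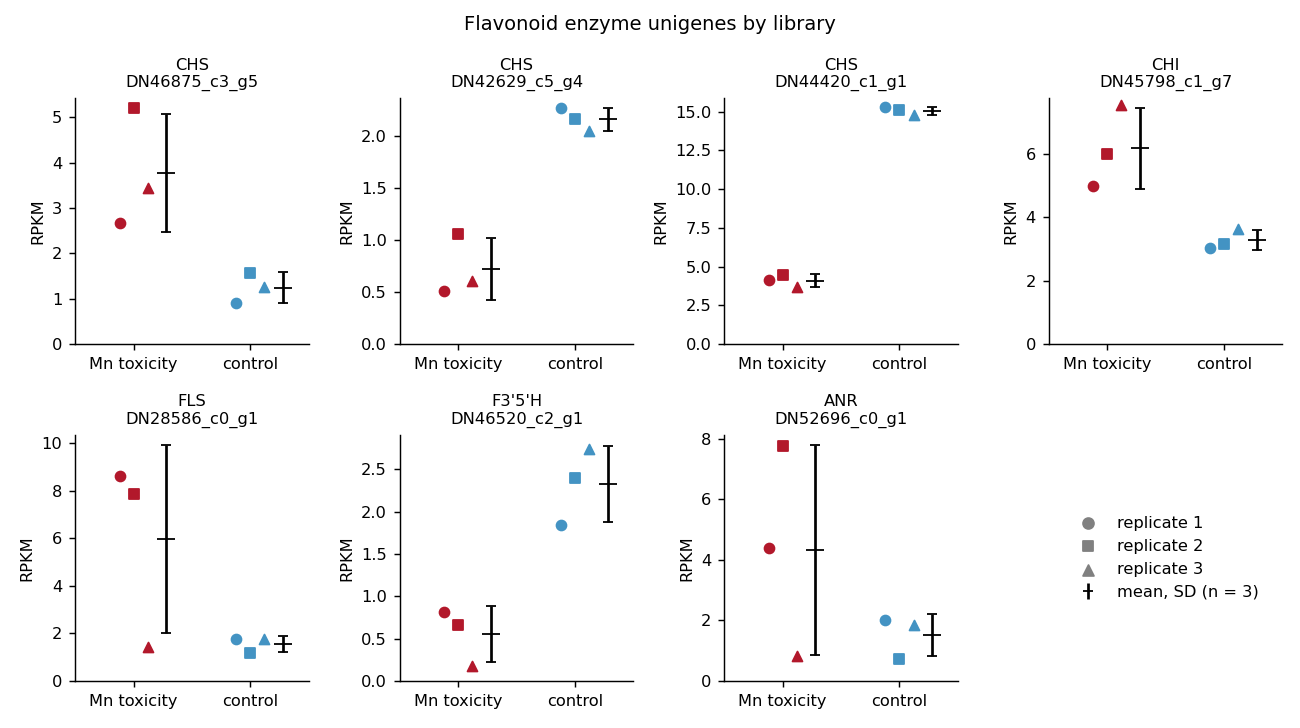
RPKM of the 7 flavonoid enzyme unigenes in each library, Mn toxicity (red) left of control (blue), with the mean and SD of 3 libraries as bars. The libraries are separated in the 3 CHS panels and in those of CHI and F3'5'H, while Mn toxicity replicate 3 of FLS (1.43 RPKM) and ANR (0.816 RPKM) lies among the control values.

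CHS, the first enzyme committed to flavonoids, was represented by 3 unigenes that moved in opposite directions. TRINITY_DN44420_c1_g1 (1005 bp), matched to a CHS of Ipomoea pes-caprae, had 4.14, 4.48 and 3.69 RPKM in Mn toxicity replicates 1, 2 and 3, against 15.3, 15.1 and 14.8 RPKM in control replicates 1, 2 and 3. Its relative spread was the narrowest of the 7 in each treatment. The means were 4.11 ± 0.396 RPKM under Mn toxicity and 15.1 ± 0.245 RPKM under control Mn (SD, n = 3 each), a 3.67-fold lower mean under Mn toxicity (log2 fold change -1.76, SE 0.23). The coefficient of variation of its control libraries was 1.63%, below the 4.38% that counting of the reads alone gives at this depth, so the agreement of these 3 values is closer than their counting error. Its reads numbered 157, 163 and 140 under Mn toxicity and 555, 561 and 463 under control Mn.

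TRINITY_DN42629_c5_g4 (1099 bp), matched to a CHS of grapevine and carrying the N-terminal domain of chalcone and stilbene synthases, was lower as well. It had 0.506, 1.06 and 0.603 RPKM in the Mn toxicity libraries, against 2.27, 2.16 and 2.05 RPKM in the control libraries. Every Mn toxicity library lay below every control library, with Mn toxicity replicate 2 the closest to them as deposited. The means were 0.722 ± 0.294 RPKM under Mn toxicity and 2.16 ± 0.111 RPKM under control Mn (SD, n = 3 each; log2 fold change -1.15, SE 0.30). They rest on 21, 42 and 25 reads under Mn toxicity and 90, 88 and 70 under control Mn.

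TRINITY_DN46875_c3_g5 went the other way. It had 2.67, 5.21 and 3.44 RPKM in the Mn toxicity libraries, against 0.899, 1.58 and 1.25 RPKM in the control libraries. The lowest Mn toxicity library was above the highest control library, and replicate 2 was the highest in each treatment as deposited. The means were 3.77 ± 1.30 RPKM under Mn toxicity and 1.24 ± 0.339 RPKM under control Mn (SD, n = 3 each; log2 fold change 1.27, SE 0.32). This unigene is a fragment of 308 bp, matched to a CHS of the orchid Phalaenopsis equestris, and its values rest on 31, 58 and 40 reads under Mn toxicity and 10, 18 and 12 under control Mn.

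Summed over the 3 unigenes, CHS amounted to 7.31, 10.7 and 7.74 RPKM in the Mn toxicity libraries and 18.5, 18.8 and 18.1 RPKM in the control libraries. The sum and its shares cover only CHS unigenes that the study called different between the treatments. Any CHS unigene that it did not call is left out, so the sum does not stand for all CHS of the leaf. The sum was 2.15-fold lower under Mn toxicity (8.60 ± 1.87 RPKM under Mn toxicity and 18.5 ± 0.355 RPKM under control Mn, SD, n = 3 each), and 1.79-fold lower after median-of-ratios scaling. The make-up of the sum differed as well. DN44420_c1_g1 took 48.7% of the CHS sum under Mn toxicity (range 41.7 to 56.6%) and 81.6% under control Mn (80.1 to 82.8%). DN46875_c3_g5 took 43.1% under Mn toxicity and 6.72% under control Mn, and DN42629_c5_g4 8.18% and 11.7%. RPKM divides by length, which gives a short fragment a large weight. By reads, DN46875_c3_g5 held 18.8% of the CHS reads under Mn toxicity and 2.14% under control Mn, and DN44420_c1_g1 held 68.5% under Mn toxicity and 84.6% under control Mn.

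**Figure D2:**
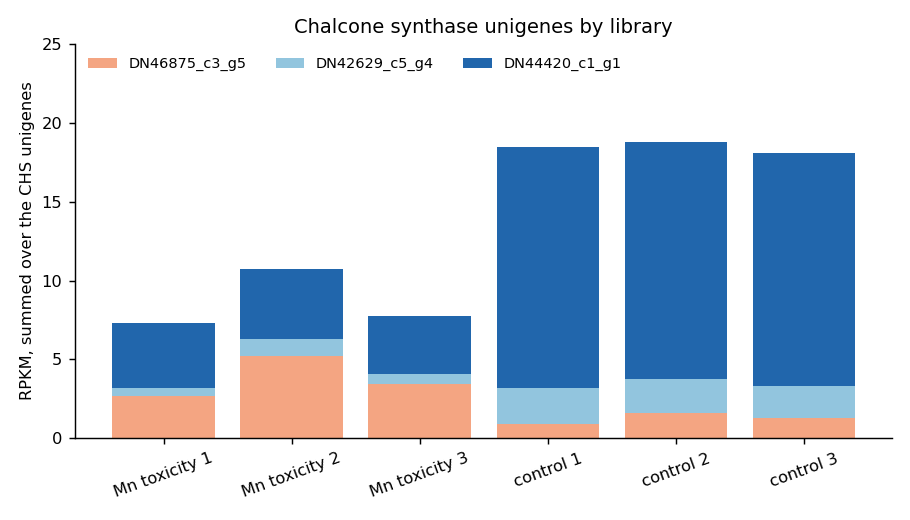
Summed RPKM of the 3 CHS unigenes in each library, stacked by unigene, with the Mn toxicity libraries left of the control libraries. The sums lie between 7.31 and 10.7 RPKM under Mn toxicity and between 18.1 and 18.8 RPKM under control Mn, and most of the difference is in DN44420_c1_g1.

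CHI closes the ring of the chalcone, and TRINITY_DN45798_c1_g7 (1212 bp) is described as a CHI of type II, the legume form that also accepts the 6'-deoxychalcone precursor of isoflavonoids. It had 4.98, 6.0 and 7.53 RPKM in the Mn toxicity libraries, against 3.04, 3.16 and 3.63 RPKM in the control libraries. The treatments did not overlap, and as deposited it was the only 1 of the 7 unigenes with its highest Mn toxicity value in replicate 3. After median-of-ratios scaling it shared this with the 3 CHS unigenes. The means were 6.17 ± 1.28 RPKM under Mn toxicity and 3.28 ± 0.313 RPKM under control Mn (SD, n = 3 each; log2 fold change 0.81, SE 0.26, and 1.03 after median-of-ratios scaling). Its reads numbered 228, 263 and 344 under Mn toxicity and 133, 142 and 137 under control Mn.

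FLS introduces the double bond that makes a dihydroflavonol a flavonol. TRINITY_DN28586_c0_g1 (1332 bp) is described as flavonol synthase/flavanone 3-hydroxylase-like, so either reaction is possible from its name, and both enzymes are 2-oxoglutarate-dependent dioxygenases. It had 8.61, 7.87 and 1.43 RPKM in Mn toxicity replicates 1, 2 and 3, against 1.75, 1.16 and 1.76 RPKM in control replicates 1, 2 and 3. Mn toxicity replicates 1 and 2 were above all control libraries, and replicate 3 lay within their range. The means were therefore 5.97 ± 3.95 RPKM under Mn toxicity and 1.55 ± 0.345 RPKM under control Mn (SD, n = 3 each; log2 fold change 1.38, SE 0.53), and without Mn toxicity replicate 3 the log2 fold change was 2.10. After median-of-ratios scaling, replicate 3 stood at 2.28 RPKM and the control libraries between 1.08 and 1.58 RPKM, so that the treatments no longer overlapped (log2 fold change 1.55, SE 0.42). The values rest on 433, 379 and 72 reads under Mn toxicity and 84, 57 and 73 under control Mn.

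ANR, at the entry to condensed tannins, had the same shape. TRINITY_DN52696_c0_g1 (1170 bp), matched to the ANR of the tannin-rich forage legume Onobrychis viciifolia, had 4.39, 7.75 and 0.816 RPKM in the Mn toxicity libraries, against 2.01, 0.715 and 1.84 RPKM in the control libraries. Mn toxicity replicates 1 and 2 were above the control libraries and replicate 3 was among them, also after median-of-ratios scaling (1.30 RPKM, with control libraries from 0.669 to 1.81 RPKM). The means were 4.32 ± 3.47 RPKM under Mn toxicity and 1.52 ± 0.704 RPKM under control Mn (SD, n = 3 each; log2 fold change 0.97, SE 0.60, and 1.72 without Mn toxicity replicate 3). Its coefficient of variation was 80.3% under Mn toxicity and 46.3% under control Mn, the widest of the 7 in each treatment, against 11.0 and 14.0% from counting alone.

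F3'5'H adds hydroxyl groups to the B ring on the way to delphinidin-type pigments. TRINITY_DN46520_c2_g1 (586 bp) had 0.813, 0.661 and 0.181 RPKM in the Mn toxicity libraries, against 1.84, 2.40 and 2.74 RPKM in the control libraries. The treatments did not overlap, with Mn toxicity replicate 3 the lowest. The means were 0.552 ± 0.330 RPKM under Mn toxicity and 2.33 ± 0.453 RPKM under control Mn (SD, n = 3 each), 4.22-fold lower under Mn toxicity (log2 fold change -1.47, SE 0.34). It was the most thinly covered of the 7 under Mn toxicity, with 18, 14 and 4 reads, against 39, 52 and 50 reads under control Mn. The 4 reads have an exact 95% Poisson interval of 0.0493 to 0.463 RPKM, which covers counting error only and ends below the lowest control value. The name comes from a protein match in Vigna radiata, whereas the protein-family annotation of the same unigene is a lipoprotein of bacterial outer membranes and not a cytochrome P450, so its identity as F3'5'H is uncertain.

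The order of the enzymes differed between the treatments. Under Mn toxicity the highest mean was that of CHI (6.17 RPKM), followed by FLS, ANR, DN44420_c1_g1 and DN46875_c3_g5, and neighbours in this order overlapped in their libraries. DN42629_c5_g4 and F3'5'H were lower and overlapped each other. Under control Mn, DN44420_c1_g1 (15.1 RPKM) was above all others, and CHI (3.28 RPKM) was above F3'5'H without overlap. F3'5'H overlapped with DN42629_c5_g4, and FLS, ANR and DN46875_c3_g5 followed, with neighbours overlapping. As deposited, the sum of all 7 was 25.6 ± 7.68 RPKM under Mn toxicity and 27.1 ± 0.918 RPKM under control Mn (SD, n = 3 each). The direction of this difference depends on the scaling. After median-of-ratios scaling, the sum was slightly higher in every Mn toxicity library than in any control library. The 4 enzymes other than CHS summed as deposited to 18.8, 22.3 and 9.96 RPKM under Mn toxicity. Under control Mn they summed to 8.64, 7.43 and 9.97 RPKM, so Mn toxicity replicate 3 was just below the highest control library. After median-of-ratios scaling, the sum of these 4 enzymes was higher in every Mn toxicity library than in any control library.

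Across the 6 libraries the 7 unigenes fell into 3 shapes, given as a description because the libraries share their treatment and their scaling. DN42629_c5_g4, DN44420_c1_g1 and F3'5'H were low together under Mn toxicity (Pearson r of log2(RPKM + 0.5) 0.87 to 0.96, n = 6). CHI and DN46875_c3_g5 were high together (r = 0.88, n = 6). FLS and ANR were high in Mn toxicity replicates 1 and 2 alone as deposited (r = 0.93, n = 6). They had an r of 0.39 and 0.25 with CHI and of 0.61 and 0.49 with DN46875_c3_g5.

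The step between Mn toxicity replicate 3 and the mean of replicates 1 and 2 was low for FLS and ANR and high for CHI. It was -2.17 for FLS and -2.27 for ANR on the log2(RPKM + 0.5) scale, where the median of all tested unigenes was -0.67. For FLS 1.12% and for ANR 0.906% of the tested unigenes had a lower step. After median-of-ratios scaling, in which replicate 3 had a factor of 0.628 and replicates 1 and 2 had 0.977 and 1.29, the steps were -1.49 for FLS and -1.66 for ANR and the median was 0.02. For the other 5 enzymes the step lay between -0.86 (F3'5'H) and 0.43 (CHI) as deposited. For CHI 98.1% of the tested unigenes had a lower step. After median-of-ratios scaling its step was 1.22, with 98.7% lower, and without replicate 3 its scaled log2 fold change was 0.64. The remaining enzymes had scaled steps between -0.56 (F3'5'H) and 0.64 (DN46875_c3_g5). Mn toxicity replicate 3 also had the fewest unigenes above 0, 40473 against 43096 and 46361 in replicates 1 and 2 and 44108 to 45522 in the control libraries. The part of these library differences in the FLS, ANR and CHI values was not tested.

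**Figure D3:**
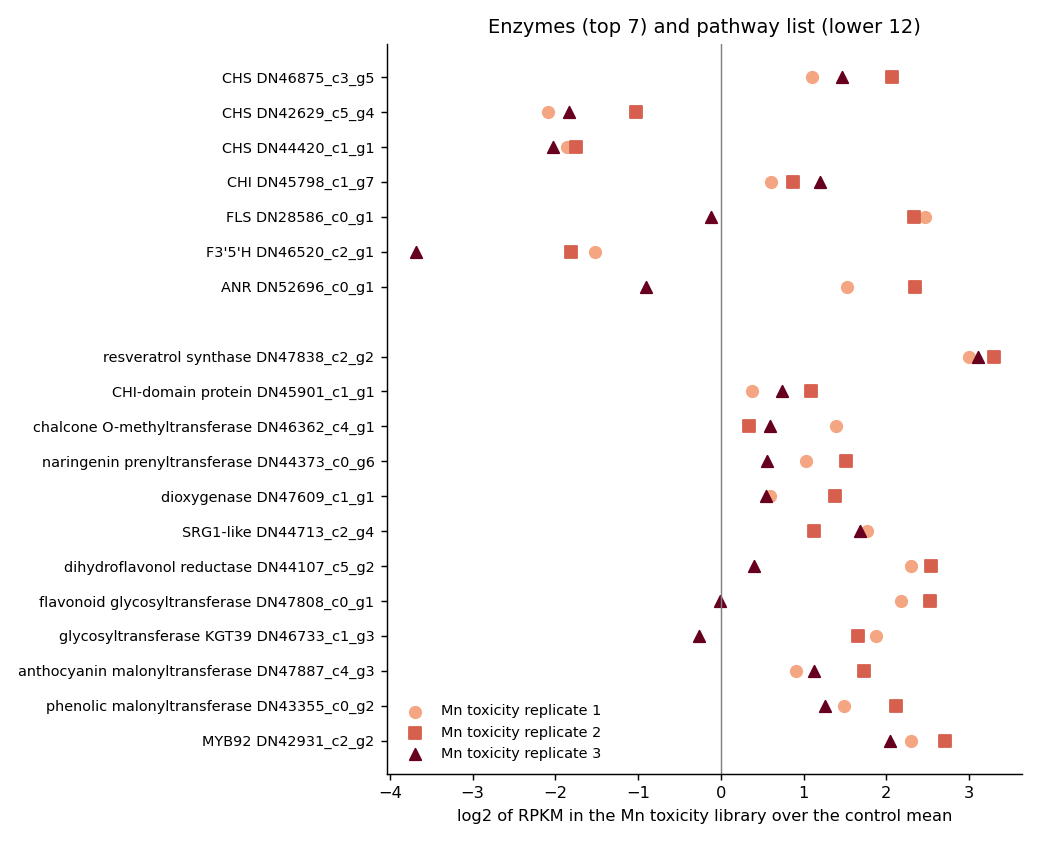
Log2 of the RPKM in each Mn toxicity library over the control mean for the 7 flavonoid enzymes (top) and the 12 unigenes of the pathway list (bottom), 1 symbol per replicate, with 0 marking the control mean. Replicate 3 (dark triangles) lies near 0 for FLS, the flavonoid glycosyltransferase and KGT39, while replicates 1 and 2 of these unigenes lie to the right.

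Beside the 7 enzymes, 12 unigenes with flavonoid-related descriptions were followed as a list. They come from the study's tables of differentially expressed genes, so neither their direction nor a test on these libraries is independent evidence, and their values are given as a description. Of the 12, 4 were called higher (resveratrol synthase, SRG1-like, phenolic glucoside malonyltransferase and MYB92) and none lower by limma, against 2.09% of all tested unigenes called higher, and 11 of the 12 had an unadjusted p under 0.05, as did 24.4% of all tested unigenes. All 12 had a positive log2 fold change, with a median of 1.14 where that of all tested unigenes was -0.20. In 10 the treatments did not overlap as deposited, with Mn toxicity higher, as in 9.41% of all tested unigenes. The count of calls was 9 after median-of-ratios scaling, which called 4.37% of all higher. With the RPKM as deposited, it was 0 when control replicate 1, 2 or 3 or Mn toxicity replicate 1 was left out. In these fits 189, 186, 200 and 208 of all 30776 to 31080 tested unigenes were called higher. It was 8 when Mn toxicity replicate 3 was left out, where 5.58% of all were called higher. Nothing is read from these counts.

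Of the unigenes with the fold of CHS or CHI, the unigene described as resveratrol synthase (DN47838_c2_g2), a stilbene synthase that uses the same substrates as CHS, had 1.61, 1.98 and 1.74 RPKM in the Mn toxicity libraries, against 0.232, 0.258 and 0.115 RPKM in the control libraries. Its log2 fold change was 1.70 (SE 0.29). The control values rest on few reads (7, 8 and 3, against 51, 60 and 55 under Mn toxicity). It was thus a unigene of the CHS superfamily that was higher in every Mn toxicity library, as DN46875_c3_g5 was, while the CHS unigenes DN44420_c1_g1 and DN42629_c5_g4 were lower. A hypothetical protein with a chalcone-flavanone isomerase domain (DN45901_c1_g1) had 14.2, 23.2 and 18.2 RPKM in the Mn toxicity libraries, against 10.6, 10.8 and 11.2 RPKM in the control libraries. As in CHI, the treatments did not overlap (log2 fold change 0.71, SE 0.24).

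Among the dioxygenases, SRG1-like DN44713_c2_g4, whose nucleotide match is a flavonol synthase/flavanone 3-hydroxylase, had 3.53, 2.26 and 3.32 RPKM in the Mn toxicity libraries, against 0.998, 1.07 and 1.04 RPKM in the control libraries. Unlike FLS, it was high in Mn toxicity replicate 3 too (log2 fold change 1.18, SE 0.29). DN47609_c1_g1, with the same kind of match, had 12.2, 21.1 and 11.8 RPKM under Mn toxicity, against 7.81, 7.72 and 8.69 RPKM under control Mn, also without overlap.

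The enzymes described as acting on finished flavonoids were split. Phenolic glucoside malonyltransferase DN43355_c0_g2 had 13.1, 20.1 and 11.2 RPKM in the Mn toxicity libraries, against 4.88, 5.23 and 3.84 RPKM in the control libraries (log2 fold change 1.54, SE 0.28). The anthocyanin malonyltransferase DN47887_c4_g3 had 1.04, 1.83 and 1.20 RPKM under Mn toxicity, against 0.403, 0.605 and 0.648 RPKM under control Mn. These malonyltransferases were above the control libraries in every Mn toxicity library. The flavonoid glycosyltransferase DN47808_c0_g1 had 13.1, 16.6 and 2.87 RPKM under Mn toxicity, against 3.53, 2.08 and 3.02 RPKM under control Mn. The glycosyltransferase KGT39 (DN46733_c1_g3) had 49.2, 42.1 and 11.1 RPKM under Mn toxicity, against 14.0, 10.3 and 15.8 RPKM under control Mn. Both had the shape of FLS as deposited, with Mn toxicity replicate 3 within the control range (r with FLS 0.99 for each, n = 6). After median-of-ratios scaling, replicate 3 was above the control libraries, as it was for FLS. It then stood at 4.57 RPKM for DN47808_c0_g1, against at most 3.17 RPKM in the control libraries, and at 17.7 RPKM for KGT39, against at most 14.1 RPKM. Neither was called as deposited, and both were among the 9 called after this scaling.

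The unigene described as dihydroflavonol-4-reductase (DN44107_c5_g2), which stands between the dihydroflavonols and the anthocyanidins that ANR uses, had 13.2, 15.5 and 3.52 RPKM in the Mn toxicity libraries, against 2.68, 2.78 and 2.53 RPKM in the control libraries. Replicate 3 was much lower than replicates 1 and 2 here as well, but remained above the control libraries (r with FLS 0.97, n = 6; log2 fold change 1.60, SE 0.46). Its nucleotide match is a cinnamoyl-CoA reductase of the lignin pathway, so its place in the flavonoid pathway is uncertain. The chalcone O-methyltransferase DN46362_c4_g1 had 6.54, 3.16 and 3.77 RPKM under Mn toxicity, against 2.79, 2.67 and 2.01 RPKM under control Mn. The naringenin prenyltransferase DN44373_c0_g6 had 5.02, 7.06 and 3.63 RPKM under Mn toxicity, against 2.14, 1.87 and 3.40 RPKM under control Mn. In neither did the treatments overlap as deposited (log2 fold change 0.69, SE 0.32, for DN46362_c4_g1 and 0.94, SE 0.33, for DN44373_c0_g6). After median-of-ratios scaling those of DN46362_c4_g1 did, with Mn toxicity replicate 2 at 2.45 RPKM and the highest control library at 2.51 RPKM. The transcription factor MYB92 (DN42931_c2_g2), which the study's predicted network pairs with ANR, had 1.74, 2.33 and 1.47 RPKM in the Mn toxicity libraries, against 0.556, 0.304 and 0.206 RPKM in the control libraries. Unlike ANR, it was above the control libraries in replicate 3 too (log2 fold change 1.46, SE 0.31).

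Trinity numbers unigenes that share a stretch of the assembly graph with the same component, so such neighbours could share reads with a member. The 7 enzymes had 22 neighbours of this kind, chosen by identifier and not by their values, and none has a description in the study's tables as far as used here. DN44420_c1_g1 and ANR had no neighbour. By limma, 0 of the 19 that were tested were called, where 5.78% of all tested unigenes were, so the count is near that background. At an unadjusted p under 0.05 there was 1, where 24.4% of all passed, and limma voom on the recovered reads called 0 as well, with library totals and with median-of-ratios scaling. As deposited, 2 of the 19 did not overlap, both lower, where 22.6% of all were lower without overlap. Their log2 fold changes ran from -0.59 to 0.30 with a median of -0.22, close to the median of all tested unigenes, and the median was 0.01 after median-of-ratios scaling. Around the CHS fragment DN46875_c3_g5 (mean over the 6 libraries 2.51 RPKM), most neighbours were far more abundant than the fragment. DN46875_c3_g2 and DN46875_c3_g7 were less abundant, with means of 0.668 and 0.310 RPKM. DN46875_c3_g3 had 60.2, 89.5 and 39.0 RPKM under Mn toxicity, against 58.9, 53.8 and 59.3 RPKM under control Mn. DN46875_c3_g1 had 43.0, 50.9 and 59.5 RPKM under Mn toxicity, against 45.1, 54.8 and 47.4 RPKM under control Mn. Both overlapped between the treatments as deposited. After median-of-ratios scaling DN46875_c3_g3 no longer did, at 61.6 to 69.4 RPKM under Mn toxicity and 50.3 to 53.1 RPKM under control Mn. DN46875_c3_g1 still overlapped, and neither was called. DN46875_c3_g4 had 39.8, 46.6 and 40.6 RPKM under Mn toxicity, against 55.1, 53.7 and 61.3 RPKM under control Mn, and DN46875_c3_g6 had 17.8, 20.8 and 17.6 RPKM under Mn toxicity, against 23.3, 24.1 and 25.6 RPKM under control Mn. These were lower in every Mn toxicity library as deposited, but not after median-of-ratios scaling, where Mn toxicity replicate 3 was above the control libraries (64.6 RPKM for DN46875_c3_g4, against 49.5 to 54.9 RPKM, and 28.1 RPKM for DN46875_c3_g6, against 20.9 to 22.9 RPKM).

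Around CHI, DN45798_c1_g3 and DN45798_c1_g4 were at 11.2 to 14.7 RPKM under Mn toxicity and 11.0 to 13.3 RPKM under control Mn, and DN45798_c1_g1 and DN45798_c1_g5 at 2.23 to 9.76 RPKM under Mn toxicity and 5.92 to 10.0 RPKM under control Mn. Around the CHS unigene DN42629_c5_g4, DN42629_c5_g6 and DN42629_c5_g7 were at 4.46 to 9.01 RPKM under Mn toxicity and 8.57 to 9.73 RPKM under control Mn. As deposited, all 6 overlapped between the treatments. After median-of-ratios scaling, DN42629_c5_g7 was lower in every Mn toxicity library (6.32 to 7.11 RPKM, against 8.19 to 8.60 RPKM under control Mn). So was DN45798_c1_g5 (3.55 to 4.88 RPKM, against 5.55 to 6.29 RPKM under control Mn). The others of these still overlapped, and none was called.

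**Figure D4:**
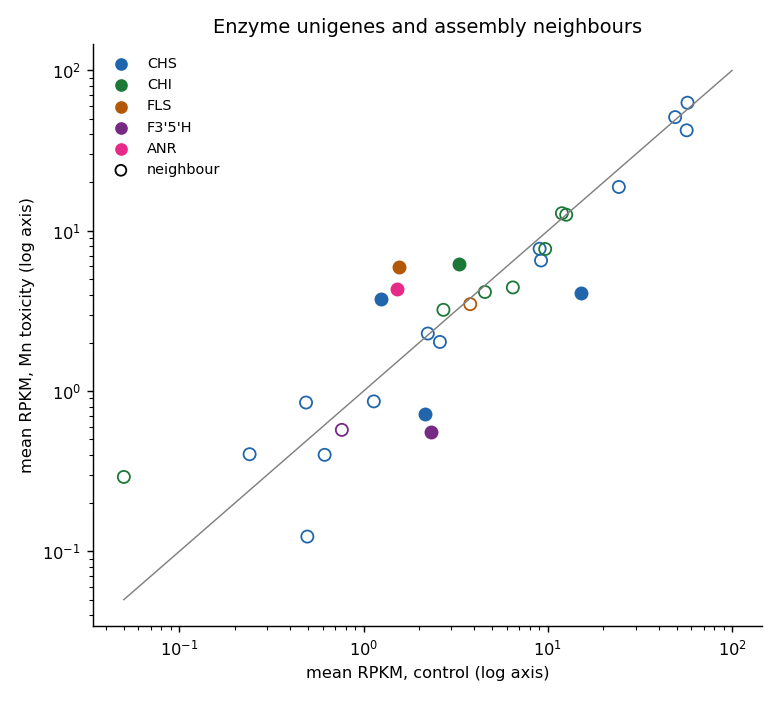
Mean RPKM of 3 libraries under Mn toxicity (vertical, log axis) against control Mn (horizontal, log axis) for the 7 flavonoid enzymes (filled) and their 22 assembly neighbours (open circles, coloured as the enzyme), with a line of equal levels. The enzymes lie off the line on both sides, while the neighbours above 2 RPKM lie close to it.

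The scaling of the libraries moved the sizes but not the direction of any of the 7 enzymes. After median-of-ratios scaling the log2 fold changes were 1.46 for DN46875_c3_g5, -0.98 for DN42629_c5_g4, -1.52 for DN44420_c1_g1, -1.35 for F3'5'H and 1.11 for ANR, beside those of CHI and FLS given above. Over 23 alternatives of scaling, filter, model and left-out library, each of the 7 kept its direction in 23. The narrowest range was that of DN44420_c1_g1, from -2.13 to -1.36. DN46875_c3_g5 ranged from 0.97 to 1.75, DN42629_c5_g4 from -1.64 to -0.82 and F3'5'H from -2.25 to -1.11. CHI ranged from 0.45 to 1.27, FLS from 0.98 to 2.10 and ANR from 0.40 to 1.72. As the enzymes were chosen by this contrast, their constant direction is no independent support.

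**Figure D5:**
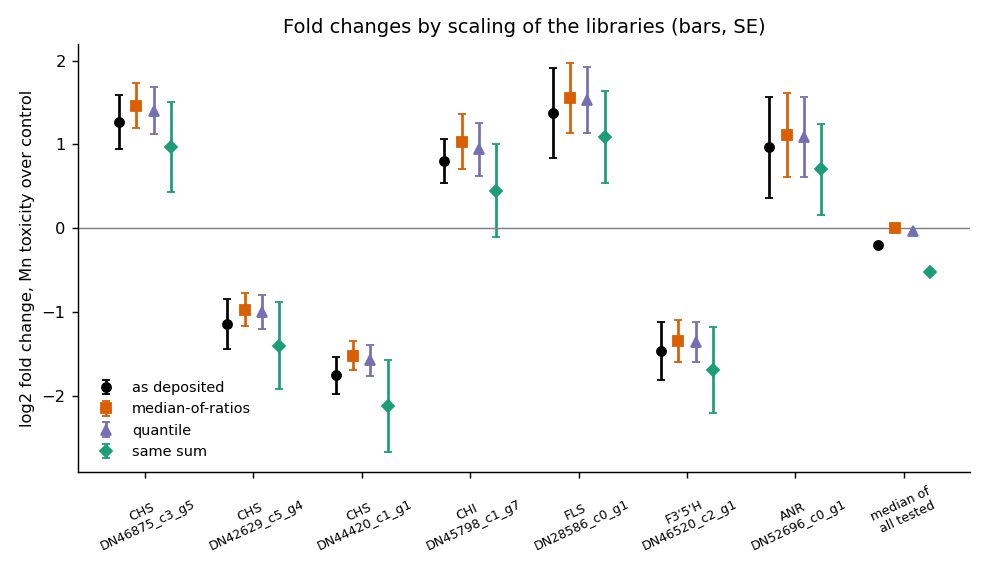
Log2 fold change (Mn toxicity over control, vertical) of the 7 flavonoid enzymes and of the median tested unigene under 4 scalings of the libraries, with SE as bars. The scalings shift all 7 together with the median unigene, and none of the 7 crosses 0.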

How the data were processed

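The authors assembled the reads with Trinity, mapped them back with Bowtie2 2.2.3, estimated abundance with RSEM and deposited RPKM, 1 table per library, without scaling between libraries as far as the methods state. No version of RSEM was given in the sources used here. Library totals and whole reads were recovered from the steps of the RPKM values (all 51569 unigenes above 0 gave whole reads within 0.01 read). Treatments were compared by limma 3.58.1 (R 4.3.3), two-sided, on log2(RPKM + 0.5) with an intensity trend, and p was adjusted by Benjamini-Hochberg over the 30913 unigenes whose mean was at least 0.5 RPKM. The procedure was tested on data simulated from the control means at a dispersion of 0.05. It recovered 90.8% of the planted changes of 1.5 on the log2 scale and 100% of those of 2.5. Changes were planted only in better covered unigenes, and the unevenness of the Mn toxicity libraries was not simulated. The recovery in the real libraries is therefore not known. Alternatives were other pseudocounts, minimums, scalings and variance models, limma voom on recovered reads, a replicate block and the omission of each library.

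The members and lists were chosen with earlier results of these data known. Named were all 7 enzymes, the 12 unigenes of the pathway list, up to 10 neighbours by mean RPKM, and for each enzyme the 2 described unigenes of highest Pearson r. Descriptions and primers come from the study's supplementary tables, 1 of which was used in part, and no other value was taken from them. With 3 libraries per treatment, an exact permutation test of 1 unigene cannot give a p below 0.10.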

Additional observations from a re-analysis of the deposited data

How the results depend on the processing

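The log2 fold changes of the 7 enzymes and the 12 unigenes of the pathway list kept their sign in every alternative, and the share of CHS DN44420_c1_g1 was lower under Mn toxicity in each. The number of enzymes called was 4, where 1787 of 30913 tested unigenes were called. It was 1 without a minimum RPKM (1276 of 51569 unigenes called). With the same sum of RPKM in every library it was 2 (1179 of 30913), and by limma voom with library totals 2 (1450 of 30913). As deposited, it was 1 without control replicate 1, 2 or 3 or Mn toxicity replicate 1 (362 to 422 called of 30776 to 31080). It was 4 without Mn toxicity replicate 2 (4942 of 30487) and 6 without replicate 3 (2901 of 31664). When median-of-ratios scaling was used, it was 2 without control replicate 2 or 3 (1755 of 30888 and 1764 of 30776). The number called in the pathway list was 4, where 646 of all 30913 tested unigenes were called higher. It was 9 with median-of-ratios scaling (1350 higher) and 9 with quantile normalization (1252 higher). With the same sum it was 1 (289 higher), and by limma voom with median-of-ratios scaling 10 (1689 higher). Without 1 library and as deposited, it was 0 to 8 (186 to 1768 higher). No assembly neighbour was called in any alternative. Over all tested unigenes, 1787 were called (646 higher, 1141 lower), and 1179 with the same sum (289 higher), 3085 by limma voom with median-of-ratios scaling (1689 higher), 1350 higher and 1165 lower after median-of-ratios scaling, and 1252 higher and 1332 lower after quantile normalization. Without 1 library the counts were 362 to 4942, with 186 to 1768 higher and 176 to 4180 lower. Lower calls were thus in excess as deposited, and higher calls with median-of-ratios scaling and without Mn toxicity replicate 3 (1768 higher, 1133 lower). Where median-of-ratios scaling was combined with the omission of 1 library, 3395 and 2944 were called without Mn toxicity replicates 2 and 3. In these fits, 1147, 1773 and 1701 were higher without Mn toxicity replicates 1, 2 and 3 and 972, 1009 and 1000 without control replicates 1, 2 and 3. Without control replicates 1 and 2, 740 and 746 were lower. In the pathway list these fits called 8, 10 and 8 without Mn toxicity replicates 1, 2 and 3. The causes of these shifts were not tested. The share of DN44420_c1_g1 in CHS was 68.5% under Mn toxicity and 84.6% under control Mn by reads in place of RPKM, and without 1 library 44.7 to 52.2% under Mn toxicity and 80.9 to 82.3% under control Mn.

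The r of the deviations from the treatment means was 0.08, -0.15 and -0.08 for same-numbered libraries and -0.14 to 0.23 for differently numbered ones. Deviations within a treatment are tied to each other, so these r cannot settle whether the replicate numbers pair the libraries. With a replicate block, 2693 unigenes were called (1768 lower), with 4 enzymes and 7 of the pathway list among them. Among the 7 enzymes, depth limits F3'5'H and the CHS fragment DN46875_c3_g5 most, at 4 to 58 reads per library.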

Other observations

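For each enzyme, the unigenes most like it over the 6 libraries were looked up by the Pearson r of log2(RPKM + 0.5). Only tested unigenes among the 1854 described in the study's tables of differentially expressed genes could be picked. They were called on these same libraries, so a high r is partly built in. Nearest means nearest among these, and for ANR 15 and 29 tested unigenes had a higher r than the 2 named. With n = 6 and 2 treatments, high values of r are common. Among all 30912 other tested unigenes, the number with an r of at least 0.95 was 204 for CHS DN46875_c3_g5, 1924 for CHS DN42629_c5_g4, 1096 for CHS DN44420_c1_g1, 88 for CHI, 867 for FLS, 693 for F3'5'H and 733 for ANR. CHI had the fewest. Its nearest was DN41873_c3_g2, described as anthranilate N-methyltransferase-like (r = 0.999), with 38.9, 47.6 and 57.7 RPKM under Mn toxicity and 24.6, 25.6 and 28.5 RPKM under control Mn, followed by DN46682_c0_g1, an unknown protein (r = 0.984).

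FLS was nearest to DN44736_c2_g3, a probable mannitol dehydrogenase (r = 0.9997), and to the putative DNA-binding protein ESCAROLA DN43643_c0_g1 (r = 0.998). ANR was nearest to the WAT1-related protein DN47327_c0_g1 (r = 0.992) and to DETOXIFICATION 34-like DN44386_c3_g2 (r = 0.989), a transporter of the MATE family by name. CHS DN44420_c1_g1 was nearest to a cation transport regulator-like protein, DN46745_c0_g3, and to aquaporin NIP2-1-like DN42913_c1_g1 (r = 0.999 for each). F3'5'H was nearest to a hypothetical protein, DN44287_c3_g2 (r = 0.995), and to a probable protein phosphatase 2C, DN42894_c1_g1 (r = 0.991). CHS DN42629_c5_g4 was nearest to 2 hypothetical proteins, DN47340_c0_g1 and DN47917_c1_g1 (r = 0.999 for each), and CHS DN46875_c3_g5 to the hypothetical protein DN47805_c3_g1 (r = 0.997) and to DN42065_c1_g2, an unknown protein (r = 0.991).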
